A study of Mus musculus with 18 samples.

Results

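Chromaffin cells of the adrenal medulla store peptides in the same granules as catecholamines, and 9 genes of that peptide system were examined. Npy, Penk, Gal, Cartpt and Tac1 encode the precursors of neuropeptide Y, the enkephalins, galanin, CART peptide and substance P. Cpe, Pcsk1, Pcsk2 and Pam encode enzymes that process such precursors. All probes annotated to these genes were taken, which gave 12 of the 45281 probes of the array and 8 of the 9 genes. The annotation used here named no probe for Pcsk2. Probes were tested when 3 or more arrays detected them (detection p below 0.01), which kept 7 of the 12. They covered 6 of the 9 genes (Npy, Penk, Gal, Cartpt, Cpe and Pam), which were tested among 10375 genes of the 19057 annotated.

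RNA came from whole adrenal glands of C57BL/6N mice aged 2 months and was hybridised to Illumina bead arrays. Castrated males, females and intact males were each represented by Ephb6 knockouts (KO) and their wild-type (WT) counterparts, with 3 arrays in each of the 6 groups and 18 in all. Ephb6 encodes a receptor of the Eph family, and the labels describe its loss as a knockout without a tissue restriction, an allele or the time since castration. Nothing in the labels ties the 3 arrays of a group to separate animals. The p-values therefore reflect variation among arrays that could be purely technical.

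Peptide precursors enter the secretory pathway as inactive chains. Prohormone convertases (Pcsk1 and Pcsk2) cut them at paired basic residues, carboxypeptidase E (Cpe) trims the basic residues left at the end, and peptidylglycine alpha-amidating monooxygenase (Pam) amidates peptides that end in glycine. Neuropeptide Y and the enkephalins are known products of chromaffin cells, released together with catecholamines upon splanchnic nerve stimulation.

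Mean bead signals spanned 446 to 640 intensity units on 17 arrays, which detected 34.6% to 37.9% of probes. KO castrated array 1 averaged 244 units and detected 27.8%. That array and KO female array 1 had the lowest quality weights (0.16 and 0.28, against 0.45 to 2.74 for the other 16). The members' called differences that include them, and the marker counts, are therefore also given without both, in a fit chosen after seeing the data. All groups share the estimate of the spread, so leaving these arrays out also changes the tests of WT groups. Medulla RNA was present in every group: Th, Dbh, Pnmt and Chga, which mark chromaffin cells, were detected on all 3 arrays of each. Other genes of the same 18-gene chromaffin list were detected less often: Hand2 on 14 of the 18 arrays, Slc18a2 on 13, Slc18a1 on 2 and Snap25 on 0. Ephb6 was lower in KO by 1.14 on the log2 scale on average over the 3 conditions (a difference of -1.14, SE 0.15, limma adjusted p = 0.00481), where the place of its probe relative to the deleted part is not given here. Its log2 intensity was 5.21 to 5.51 in KO and 6.68 to 6.82 in WT castrated males, 4.96 to 5.54 in KO and 6.51 to 7.12 in WT females, and 4.89 to 5.86 in KO and 5.73 to 6.37 in WT intact males, the 1 condition with overlap.

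Npy, Gal and Cartpt are the 3 precursors whose levels were lowest in castrated KO males, and the 250 bases before their transcription starts are shown so that what they do and do not share can be seen. The sequences are those of RefSeq on build GRCm38.p6, written 5′ to 3′ on the strand of the gene, with the letters TGACGTCA, the cyclic AMP response element, in capitals where they occur. Cartpt lies at chr13:99900684-99900933 on the minus strand, Npy at chr6:49822460-49822709 on the plus strand and Gal at chr19:3414545-3414794 on the minus strand.
Cartpt: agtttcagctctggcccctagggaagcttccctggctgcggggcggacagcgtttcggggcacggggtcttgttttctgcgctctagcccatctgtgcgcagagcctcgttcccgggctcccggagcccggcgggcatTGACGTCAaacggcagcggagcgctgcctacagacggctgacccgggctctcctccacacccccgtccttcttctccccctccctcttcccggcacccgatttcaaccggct
Npy: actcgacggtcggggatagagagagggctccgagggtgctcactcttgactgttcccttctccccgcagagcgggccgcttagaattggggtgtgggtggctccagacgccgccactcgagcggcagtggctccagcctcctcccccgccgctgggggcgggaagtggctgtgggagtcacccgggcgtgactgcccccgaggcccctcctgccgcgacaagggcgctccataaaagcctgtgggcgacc
Gal: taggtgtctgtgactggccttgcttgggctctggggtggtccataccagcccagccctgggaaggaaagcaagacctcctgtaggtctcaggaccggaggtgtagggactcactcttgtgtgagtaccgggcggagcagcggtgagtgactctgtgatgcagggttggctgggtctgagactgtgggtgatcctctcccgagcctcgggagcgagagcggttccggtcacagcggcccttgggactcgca
Both strands were searched, and since TGACGTCA reads the same on each, a match is counted once. Among the 7 members with a window in the table (Penk and Cpe are not in it), the element occurred in Cartpt, 112 to 105 bases before the start, and in Pcsk1, 78 to 71 bases before it. It occurred in 1.55% of all 32851 windows of 250 bases. None of the 7 windows held GCGTGGGCG, the EGR site (0.536% of all windows), TGACTCA, the AP-1 site (4.46%), or the palindromic androgen (0.00913%) and estrogen (0.0213%) response elements. CANNTG, the E-box, where N is any base, occurred in 4 of the 7 (Cartpt, Tac1, Pcsk2 and Pam) and in 66.2% of all windows. These matches describe letters in a window and do not show binding.

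Members were called by the limma fit between castrated, female and intact male glands, and none was called between KO and WT glands. Of the 6 tested members, 4 were lower in KO castrated than in KO intact males (Npy, Gal, Cartpt and Cpe) and 0 were higher, where 17.5% of all 10375 genes were called, 10.1% lower and 7.45% higher. In WT castrated against WT intact males, 2 members were lower (Cartpt and Cpe), where 10.7% of all genes were called, 6.1% lower and 4.61% higher. Npy and Gal also passed there without KO castrated array 1 and KO female array 1, where 1841 of the 10375 genes passed. In KO females against KO intact males Cartpt was higher and Cpe lower, where 10.3% of all genes were called, 5.52% higher and 4.77% lower. In WT females against WT intact males Cpe alone was called, on the lower side, where 10.1% of all genes were called, 4.82% lower and 5.31% higher. KO castrated males against KO females had 3 members lower (Npy, Gal and Cartpt), where 1.53% of all genes were called, 1.02% lower and 0.511% higher. In WT castrated males against WT females 0 of the 6 passed, where 0.328% of all genes were called, 0.193% lower and 0.135% higher.

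The median difference of the 6 members was -0.75 in KO castrated against KO intact males and -0.58 in WT castrated against WT intact males, beside -0.03 and -0.03 over all genes. For KO castrated males against KO females it was -0.69, beside 0.00 over all genes, and for WT castrated males against WT females -0.13, beside -0.01. In female against intact male glands it was 0.19 in KO and -0.11 in WT, beside -0.03 and -0.02. The comparisons within a genotype share arrays (the intact males stand in 2 of them), so their differences are not independent of each other.

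**Figure D1:**
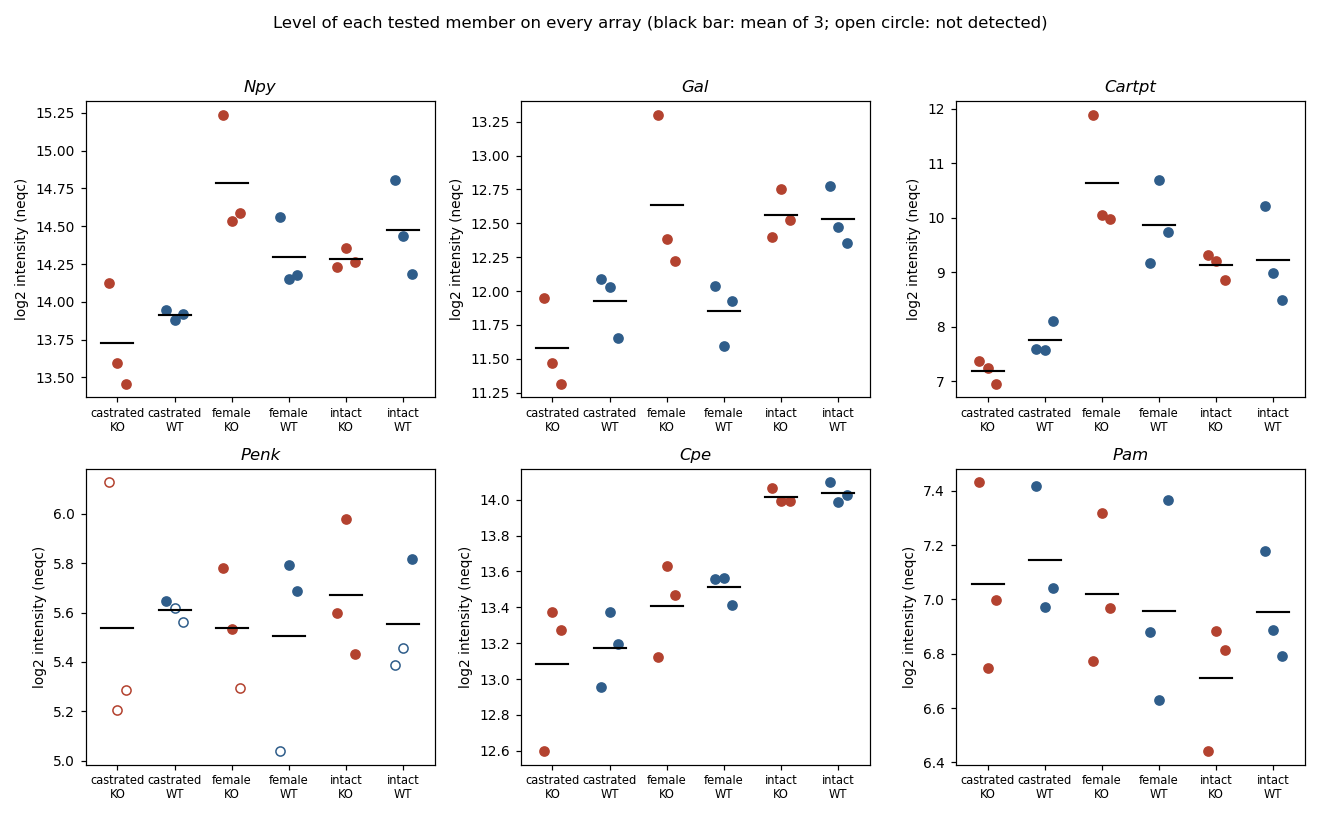
Log2 intensity of Npy, Gal, Cartpt, Penk, Cpe and Pam (vertical axes, 1 scale per gene) on each of the 18 arrays, with castrated, female and intact male groups from left to right and KO (red) left of WT (blue). Bars are means of 3 arrays and open circles arrays on which the probe was not detected; Cpe lies at 13.99 or above on all 6 intact male arrays and at 13.63 or below on the 12 others.

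**Figure D2:**
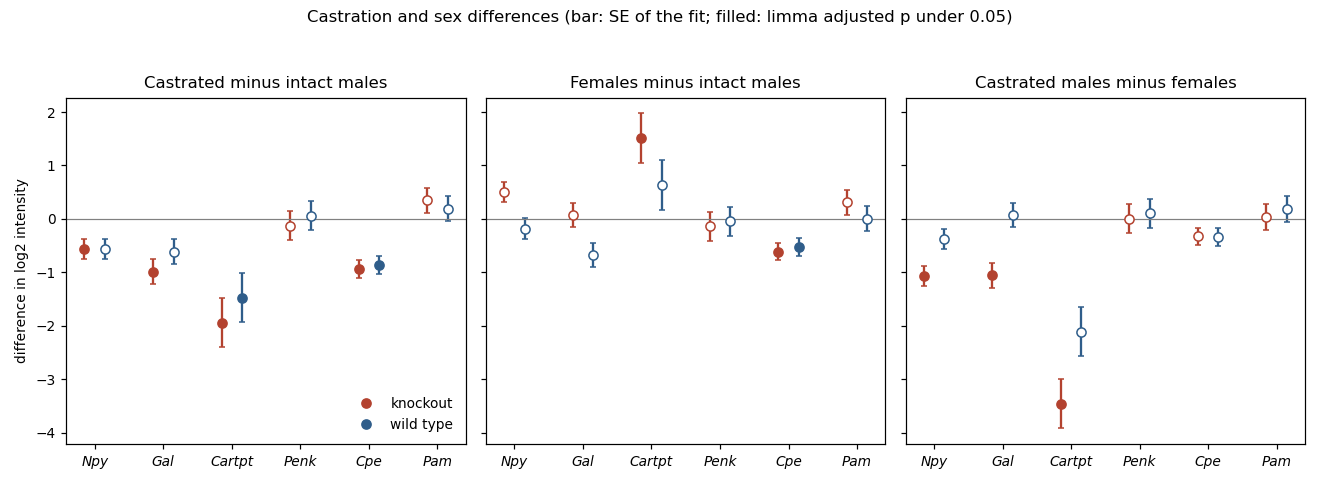
Difference in log2 intensity of each tested member (horizontal axis) in castrated minus intact males, females minus intact males and castrated males minus females, KO in red and WT in blue. Bars are the standard error of the fit and filled points passed a limma adjusted p of 0.05; the lowest point is Cartpt in KO castrated males minus KO females, at -3.45.

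Npy encodes neuropeptide Y, a vasoconstrictor peptide that is released with catecholamines. Its single probe was bright on all 18 arrays (13.46 to 15.24 in log2 intensity). In castrated males the 3 KO arrays lay at 13.46, 13.59 and 14.12, and the WT arrays at 13.88, 13.92 and 13.94. In females they lay at 14.54, 14.59 and 15.24 in KO and at 14.15, 14.18 and 14.56 in WT. Intact males had 14.23, 14.27 and 14.36 in KO and 14.19, 14.43 and 14.81 in WT. All 6 castrated arrays were below all 12 other arrays, and the highest value was that of KO female array 1. In order of means the groups ran from KO females (14.79) through WT intact males (14.48), WT females (14.30), KO intact males (14.28) and WT castrated males (13.92) to KO castrated males (13.73). Neighbours in this order overlapped, except that KO intact males lay above WT castrated males.

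Npy was lower in KO castrated than in KO intact males by a difference of -0.56 (SE 0.19, limma adjusted p = 0.0470), and the WT difference was also -0.56 (adjusted p = 0.0647), which missed the threshold. Npy passed in WT with KO castrated array 1 and KO female array 1 out of the shared fit (limma adjusted p = 0.00573). In KO castrated males against KO females it was -1.06 (SE 0.19, limma adjusted p = 0.00727), with no overlap, and -1.03 without KO castrated array 1 and KO female array 1 (adjusted p = 0.00475). The female difference from intact males was 0.50 in KO, where the arrays did not overlap, and -0.18 in WT, and neither passed (limma adjusted p = 0.103 and 0.643). Leaving out 1 array at a time, the KO female value ran from 0.28 to 0.63. The call in KO castrated against KO intact males was lost in limma when any 1 of 5 arrays was left out (differences of -0.59, -0.52 and -0.57 without KO intact array 1, 2 or 3, and -0.49 and -0.43 without KO castrated array 2 or 3), while without KO castrated array 1 and KO female array 1 it was -0.76 (adjusted p = 0.00135).

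Gal encodes the precursor of galanin, a peptide of neurons and neuroendocrine cells. Castrated males had 11.32, 11.47 and 11.95 in log2 intensity in KO, and 11.66, 12.03 and 12.09 in WT. Females had 12.22, 12.38 and 13.30 in KO and 11.60, 11.93 and 12.04 in WT. Intact males had 12.40, 12.53 and 12.76 in KO and 12.36, 12.47 and 12.77 in WT. The group means fell into a higher set of KO females (12.64), KO intact males (12.56) and WT intact males (12.53), and a lower set of WT castrated males (11.92), WT females (11.85) and KO castrated males (11.58). Neighbouring groups within each set overlapped, and WT intact males lay wholly above WT castrated males.

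Gal was lower in KO castrated than in KO intact males by a difference of -0.98 (SE 0.23, limma adjusted p = 0.00639), a call kept without each of the 6 arrays in turn and, at -1.17, without KO castrated array 1 and KO female array 1 (adjusted p = 0.000105). The WT difference of -0.61 did not pass (limma adjusted p = 0.0994), although the 3 arrays of each group did not overlap. Females against intact males gave 0.07 in KO (arrays overlapping) and -0.68 in WT (arrays apart, limma adjusted p = 0.0686). Leaving out 1 array at a time, the KO value ran from -0.26 to 0.28. With KO castrated array 1 and KO female array 1 out of the shared fit, both WT differences passed (limma adjusted p = 0.00733 for castrated males and 0.00340 for females). The difference of KO castrated males from KO females was -1.06 (SE 0.23, limma adjusted p = 0.0242). That call was lost without the intensity trend (limma adjusted p = 0.0542). It was also lost when KO female array 1, KO castrated array 2 or KO castrated array 3 was left out (limma adjusted p of 0.0869, 0.0580 and 0.0969), with a difference of -0.72 without the first of these, and with KO castrated array 1 and KO female array 1 both left out it was -0.91 (adjusted p = 0.0217).

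Cartpt, the CART prepropeptide gene, varied the most of the members. In log2 intensity its brighter probe gave 6.96, 7.24 and 7.37 in KO castrated males, and 7.57, 7.59 and 8.11 in WT castrated males. Female arrays gave 9.98, 10.05 and 11.90 in KO and 9.17, 9.74 and 10.70 in WT. Intact males gave 8.85, 9.21 and 9.32 in KO and 8.50, 8.99 and 10.21 in WT. Every castrated array was below every female and every intact male array. The order of means was KO females (10.64), WT females (9.87), WT intact males (9.23), KO intact males (9.13), WT castrated males (7.76) and KO castrated males (7.19); the female and intact male groups overlapped with their neighbours, while WT castrated males lay below KO intact males and KO castrated males below WT castrated males without overlap.

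Cartpt in KO castrated males was 3.84-fold below KO intact males (a log2 difference of -1.94, SE 0.46, limma adjusted p = 0.00747) and 10.96-fold below KO females (-3.45, SE 0.46, limma adjusted p = 0.00131). The WT differences were -1.47 against intact males (limma adjusted p = 0.0473) and -2.11 against females (limma adjusted p = 0.0603, not called). KO females were 2.86-fold above KO intact males (1.51, limma adjusted p = 0.0420), and WT females differed from WT intact males by 0.64 (limma adjusted p = 0.460). Both KO castrated calls were kept without each array in turn, and without KO castrated array 1 and KO female array 1 they stood at -2.03 against KO intact males and -2.92 against KO females (limma adjusted p = 0.00248 and 0.00554).

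The other Cartpt calls lay near the threshold. The KO female call was lost in limma without KO female array 1, where the difference was 0.89 (adjusted p = 0.208), and without KO intact array 1, 2 or 3 (1.61, 1.55 and 1.38). Without KO castrated array 1 and KO female array 1 together that call was also lost (0.89, limma adjusted p = 0.179). In WT castrated against WT intact males it was lost without WT intact array 1 (-0.98, adjusted p = 0.196) or array 2 (-1.60) and without WT castrated array 1, 2 or 3 (-1.39, -1.38 and -1.65). In WT castrated males against WT females a limma call appeared without WT female array 1 (-2.46, adjusted p = 0.0463). It also appeared with KO castrated array 1 and KO female array 1 out of the shared fit (-2.11, limma adjusted p = 0.00805).

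The second Cartpt probe gave the same order of groups at a lower brightness. It was dimmer than the first by 0.13 to 0.71 on each of the 18 arrays. Fitted with all 18158 probes that passed the filter, its difference was -1.62 in KO castrated against KO intact males (SE 0.47, limma adjusted p = 0.0292), where 13.3% of probes passed in either direction. In KO castrated males against KO females it was -3.28 (limma adjusted p = 0.00183, 0.898% of probes), and in KO females against KO intact males 1.66 (limma adjusted p = 0.0354, 7.88% of probes). In that probe fit the first probe missed the threshold in KO females against KO intact males (limma adjusted p = 0.0523) and in WT castrated against WT intact males (limma adjusted p = 0.0583). The second probe's WT differences did not pass: -1.35 in castrated against intact males (limma adjusted p = 0.0889, 8.03% of probes), 0.81 in females against intact males (limma adjusted p = 0.369, 8.11% of probes) and -2.16 in castrated males against females (limma adjusted p = 0.0744, 0.215% of probes). Both probes target the same transcript record, so they are repeat measures and not replicates.

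Penk encodes preproenkephalin, and its probe was dim. It was detected on 9 of the 18 arrays: 0 KO and 1 WT castrated arrays, 2 KO and 2 WT female arrays, and 3 KO and 1 WT intact male arrays. Its log2 intensity spanned 5.04 to 6.13, and all pairs of groups compared overlapped. No Penk difference passed the limma test in any of the 13 comparisons, and the standard error of its differences between 2 groups was 0.27. Tac1, the precursor of substance P, was detected on 1 array by 1 probe (a WT female, 5.60 in log2 intensity) and on 0 arrays by the other, and was not tested.

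Cpe encodes carboxypeptidase E, which removes basic residues from peptide intermediates in granules. The 3 castrated arrays lay at 12.60, 13.28 and 13.38 in log2 intensity in KO and at 12.95, 13.20 and 13.37 in WT. Female arrays lay at 13.12, 13.47 and 13.63 in KO and at 13.41, 13.56 and 13.56 in WT. Intact male arrays lay at 13.99, 13.99 and 14.06 in KO and at 13.99, 14.02 and 14.10 in WT. All 6 intact male arrays were above all other arrays, and KO castrated array 1 was the lowest. By mean the order was WT intact males (14.04), KO intact males (14.02), WT females (13.51), KO females (13.41), WT castrated males (13.17) and KO castrated males (13.08), and the 1 step without overlap was that from KO intact males to WT females.

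Cpe was the member called in all 4 comparisons with intact males. The castration difference was -0.93 in KO (SE 0.16, limma adjusted p = 0.000824) and -0.86 in WT (SE 0.16, limma adjusted p = 0.00179), and both calls were kept without each array in turn. Without KO castrated array 1 and KO female array 1 the KO value was -0.69 (limma adjusted p = 0.000230). The female differences were smaller, -0.61 in KO (limma adjusted p = 0.0203) and -0.52 in WT (limma adjusted p = 0.0461). The WT female call was lost without any 1 of its 6 arrays (-0.55 to -0.48). The KO female call was lost without KO intact array 1, 2 or 3 (-0.59, -0.62 and -0.62) or KO female array 1 (-0.47), and without that array and KO castrated array 1 together it was kept at -0.47 (limma adjusted p = 0.00649). Under scaling by array medians 3 of the 4 Cpe calls were lost: KO female (-0.50, limma adjusted p = 0.717), WT castrated (-0.91, adjusted p = 0.135) and WT female glands (-0.55, adjusted p = 0.633). Castrated males differed from females by -0.32 in KO and -0.34 in WT, and neither passed (limma adjusted p = 0.314 and 0.545).

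Pam encodes the amidating enzyme that matures the carboxyl end of peptides such as neuropeptide Y and substance P. Its main probe was detected on all 18 arrays at 6.44 to 7.43 in log2 intensity, and its second probe on 0. Group means ran from 7.14 in WT castrated males, 7.06 in KO castrated males, 7.02 in KO females, 6.96 in WT females and 6.95 in WT intact males to 6.71 in KO intact males, with overlap at each step. Its largest difference was 0.35 in KO castrated against KO intact males (SE 0.23, limma adjusted p = 0.337), and none of the 13 comparisons called it. Pcsk1, prohormone convertase 1, had 2 probes that were detected on 0 of 18 arrays and was not tested.

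The Ephb6 genotype was set against each member within castrated males, females and intact males. No member passed: 0 of 6 in each condition, where 0% of all 10375 genes passed, and 0 of 6 in the mean of the 3 conditions, where 0.00964% passed. At an unadjusted p under 0.05 there were 0 of 6 members in castrated males, 2 in females and 0 in intact males, and 651, 291 and 275 genes in the whole table.

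The 2 members were Gal and Npy in females. Gal was higher in each of the 3 KO female arrays (12.22 to 13.30) than in each of the 3 WT female arrays (11.60 to 12.04), a difference of 0.78 (SE 0.23, limma adjusted p = 0.99997). Npy differed by 0.49 between KO and WT females (SE 0.19, limma adjusted p = 0.99997), with overlapping arrays. Without KO female array 1, the highest for both genes, the female differences were 0.45 for Gal and 0.26 for Npy, and that of Cartpt was 0.15 in place of 0.78. Without KO castrated array 1 the differences in castrated males were -0.53 for Gal (-0.35 with it), -0.39 for Npy (-0.19) and -0.66 for Cartpt (-0.57), and 0 members passed with both arrays left out. In castrated males Cartpt was lower on each KO array than on each WT array by its brighter probe, with a difference of -0.57 (SE 0.46, limma adjusted p = 0.801), and its second probe overlapped. In intact males the 6 differences lay between -0.24 and 0.12 on the log2 scale, and all arrays overlapped.

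Whether the knockout effect differed between conditions was tested directly. For Gal the effect was -0.35 in castrated males and 0.78 in females, a difference of -1.13 (SE 0.32, limma adjusted p = 0.911). For Npy the effects were -0.19 in castrated males and 0.49 in females, a difference of -0.68 (SE 0.27, limma adjusted p = 0.911). None of the 6 members passed in any of the 3 tests of this kind, and neither did any of the 10375 genes (0%).

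**Figure D3:**
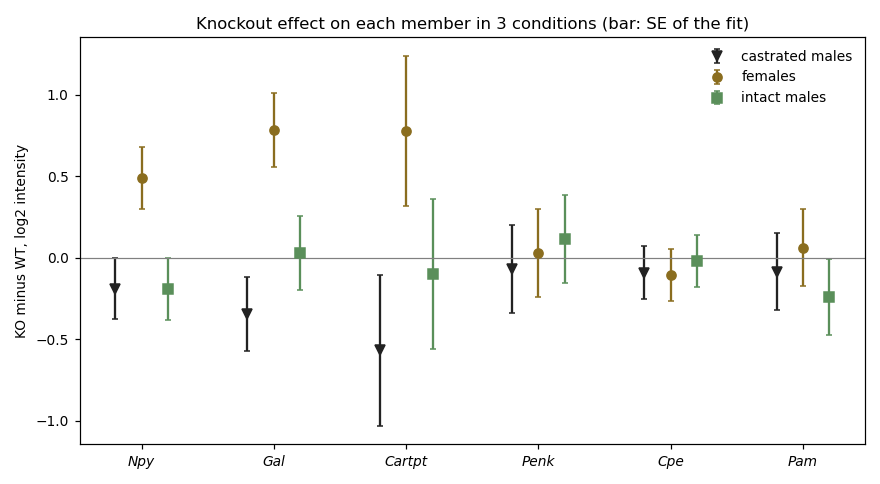
Difference KO minus WT in log2 intensity for each tested member (horizontal axis) in castrated males (triangles), females (circles) and intact males (squares). Bars are the standard error of the fit; Gal in females is at 0.78 and in castrated males at -0.35, and no point passed the limma test.

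The level of chromaffin markers on each array was summarised as a medulla index, the mean log2 intensity of the 15 tested genes of an 18-gene list that holds no member. Slc18a1 and Snap25 of that list were detected on 2 and 0 arrays and were not tested. The middle array of each group had an index of 10.18 in KO castrated males, 10.38 in WT castrated males, 10.72 in KO females, 10.61 in WT females, 11.06 in KO intact males and 11.01 in WT intact males. Over all arrays it spanned 9.67 (KO castrated array 3) to 11.53 (KO female array 1). Castrated arrays of each genotype all lay below the intact male arrays of that genotype. In whole glands, fewer chromaffin cells and less RNA per chromaffin cell cannot be told apart.

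Of the 15 chromaffin markers 13 were lower in KO castrated than in KO intact males and 0 higher (median -1.24), among them Cyb561 (-1.18), the electron carrier of the granule membrane, Chgb (-0.92), the granule matrix protein chromogranin B, Dbh (-1.45), which makes noradrenaline, and the transcription factor Gata2 (-1.34). In WT 5 of 15 were lower (median -0.64), including Chgb (-0.52), Dbh (-0.94), Gata2 (-0.78) and Phox2a (-0.81). Of all 10375 genes, 10.1% were lower in the KO and 6.1% in the WT comparison. In KO castrated males against KO females 6 of 15 were lower, where 1.02% of all genes were. In both female against intact male comparisons 0 of 15 passed in either direction (medians -0.30 in KO and -0.34 in WT), where 10.3% and 10.1% of all genes passed. Under scaling by array medians 14 of 15 were lower in KO castrated and 0 in WT castrated against intact males, and 10 in KO castrated males against KO females. Of all genes 1233, 281 and 226 were lower under that scaling, in the same order. Without KO castrated array 1 and KO female array 1 the marker counts in that order were 13, 9 and 4, and 3 were lower in KO and 1 in WT females against intact males. Over all genes that fit called 1841 in WT castrated and 1648 in WT females against intact males, and 88 in KO castrated males against KO females. Pnmt, which makes adrenaline, was called in none of these, with differences from intact males of -0.34 in KO and 0.75 in WT castrated males.

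Markers of other tissues moved as well. Of the 8 cortex markers tested, 6 were higher in KO castrated and 3 in WT castrated males than in intact males, and without KO castrated array 1 and KO female array 1 these counts were 6 and 4. With all arrays, 7.45% and 4.61% of all genes were higher. In females against intact males Cyp21a1 (0.52 in KO and 0.57 in WT) and Nr5a1 (0.81 and 1.18) were higher, and Cyp11a1 was lower in WT (-0.42). Under scaling by array medians 0 of the 8 passed in any of these 4 comparisons. Nr5a1, the steroidogenic factor of the cortex, was higher by 0.99 in KO and 1.34 in WT castrated against intact males. All 3 nerve markers tested (Uchl1, Prph and Stmn2) were lower in KO castrated against KO intact males, by differences of -1.48, -1.97 and -1.33, and 1 of 2 Schwann cell markers, Sox10, by -1.66. Of all genes 10.1% were lower there. In WT 0 of the 3 nerve and 0 of the 2 Schwann cell markers passed, against 2 and 1 without the doubted KO arrays. Uchl1 was also lower in KO females than in KO intact males (-0.72). Of 5 zona glomerulosa markers Kcnk9 was lower in castrated than in intact males, by at least 1.28-fold in KO and 1.34-fold in WT, with 0 of 3 castrated arrays detecting it in either genotype. Of the pancreas list only Cela1 was tested, and Ins2, Gcg, Prss2 and Cpa1 were detected on 0 arrays, so Cela1 does not show pancreas tissue here. Cela1 was lower in WT castrated against WT intact males (-0.57). Of the adipose, kidney and lymphocyte markers 0 passed (1 of 3 adipose markers did in KO females against KO intact males and in KO castrated males against KO females without the doubted arrays). The part of these markers in the members' differences was not tested beyond the medulla index.

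The tested members followed the medulla index to different degrees over the 18 arrays. Two-sided permutation p-values from 1e+05 shuffles, adjusted over the 6 members, were 6e-05 for Gal (Pearson r = 0.898, Spearman rho = 0.884), 0.00048 for Npy (0.782 and 0.802), 0.00302 for Cartpt (0.689 and 0.664) and 0.0318 for Cpe (0.538 and 0.628), where those of rho were 6e-05, 3e-04, 0.00664 and 0.00961. Penk (0.248) and Pam (-0.301) did not pass (permutation p adjusted 0.324 and 0.271). The value 6e-05 is what the adjustment gives when only 1 member is at the smallest p that the shuffles allow. These arrays fall into 6 groups, so the pooled values hold group differences too.

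With group means subtracted, r was 0.809 for Gal (permutation p adjusted 0.00054) and 0.706 for Npy (0.00306), and 0.474 for Cartpt and -0.484 for Cpe, both with an adjusted permutation p of 0.0712. Spearman's rho on the same values was 0.752, 0.688, 0.387 and -0.436, with adjusted permutation p of 0.00318, 0.00681, 0.171 and 0.145. The shuffles moved values freely over all arrays and not within groups, although the group means had been removed. The permutation p-values with group means subtracted are therefore too small. Whether Gal and Npy would pass a shuffle within groups was not tested. Without the 2 arrays farthest from the median index (KO castrated array 3 and KO female array 1), the pooled r was 0.827 for Gal, 0.591 for Npy, 0.475 for Cartpt and 0.806 for Cpe. The Cartpt relation no longer passed over those 16 arrays (permutation p adjusted 0.0946, Spearman rho 0.521). With group means subtracted, then, r passed by these too lenient shuffles for Gal and Npy, and for Cpe it was negative and did not pass. That r was not repeated without KO female array 1, whose index was 11.53, against 10.72 and 10.58 on the other KO female arrays. How far the Gal and Npy values rest on that array was not tested.

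**Figure D4:**
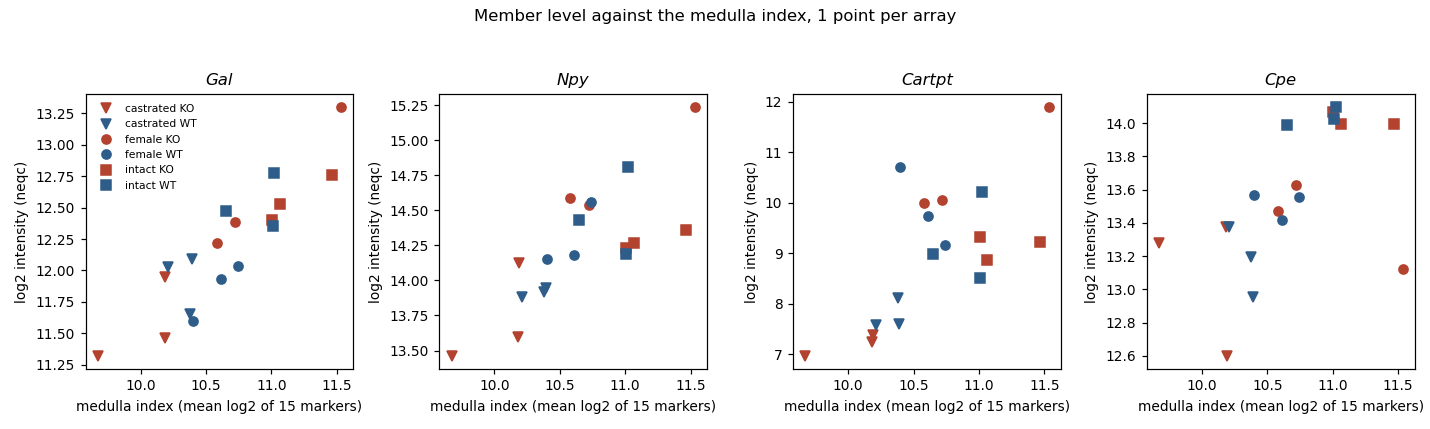
Log2 intensity of Gal, Npy, Cartpt and Cpe (vertical axes) against the medulla index of the array (horizontal axis, mean log2 intensity of 15 chromaffin markers), 1 point per array, KO red and WT blue. Triangles are castrated males, circles females and squares intact males; KO female array 1, at an index of 11.53, is highest for Gal, Npy and Cartpt and is among the lower arrays for Cpe.

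The comparisons were refitted with the index as a covariate. With it, 1 member was called in KO castrated against KO intact males, Cpe (-1.37, SE 0.26, limma adjusted p = 0.00509), against 4 without it. Npy and Gal changed sign there, to 0.20 and 0.08 (limma adjusted p = 0.690 and 0.892), and Cartpt was -0.65 (SE 0.72, limma adjusted p = 0.653). In WT castrated against WT intact males Cpe was at -1.08 (limma adjusted p = 0.000930) and Cartpt at -0.84 (limma adjusted p = 0.348). Between KO castrated males and KO females 0 members were called, with Cartpt at -2.42 (SE 0.63, limma adjusted p = 0.164). These fits kept KO castrated array 1 and KO female array 1, and the latter had the highest index (11.53). How far the values with the covariate, the sign changes of Npy and Gal and the larger Cpe difference included, rest on those arrays was not tested.

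In the female comparisons the covariate changed less. KO females were above KO intact males by 1.77 for Cartpt (limma adjusted p = 0.0109) and by 0.65 for Npy, which now passed (limma adjusted p = 0.00679). Cpe was at -0.70 in KO (limma adjusted p = 0.00551) and at -0.64 in WT (limma adjusted p = 0.0136). The index differs between the groups themselves, and in KO castrated against KO intact males the standard error of Cpe grew 1.59-fold with it in the fit.

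**Figure D5:**
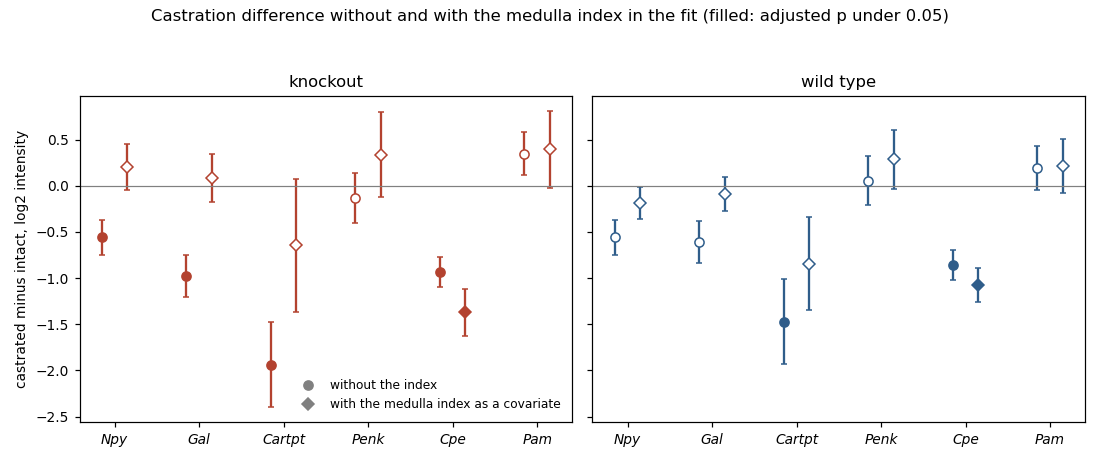
Difference in log2 intensity, castrated minus intact males, for each tested member without (circles) and with (diamonds) the medulla index as a covariate, KO in the left panel and WT in the right. All fits shown include KO castrated array 1 and KO female array 1. Bars are the standard error and filled points passed a limma adjusted p of 0.05; Cpe is filled in all 4 fits, at -0.93 and -1.37 in KO and at -0.86 and -1.08 in WT.

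The members varied together to different degrees over the 18 arrays, which share the groups and the array-wide level of medulla RNA. Pearson's r was 0.857 between Npy and Cartpt, 0.850 between Npy and Gal and 0.635 between Gal and Cartpt. Cpe stood apart from these 3, with r of 0.260 to Npy, 0.399 to Gal and 0.321 to Cartpt, and was at -0.515 with Pam. By r over the same arrays, the genes with the patterns most like each member were Omg (0.921), Septin3 (0.879) and Slc38a11 (0.872) for Npy, Tmem59l (0.941), Septin3 (0.935) and Ckmt1 (0.923) for Gal, and Prdx4 (0.907), Chst1 (0.860) and Actn1 (0.843) for Cartpt. For Cpe they were Shh (0.944), Axin2 (0.925) and 4930511M06Rik (0.923), for Penk Tyro3 (0.813), Fcho1 (0.746) and Srp14 (0.743), and for Pam Zfp709 (0.728), Skiv2l (0.714) and Dera (0.700). Whether the Cpe signal of these whole glands came from chromaffin cells or from other cells was not tested.

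Other genes of peptide biology were counted in the same fit. Of 40 further peptide precursors 7 were tested, and Adm, the precursor of adrenomedullin, was the 1 called, lower in KO castrated than in KO intact males by a difference of -1.74 (SE 0.39, limma adjusted p = 0.00490). Its WT difference was -1.04 (limma adjusted p = 0.0965). Of all genes 10.1% were lower in the KO comparison that called Adm. In the remaining castration and sex comparisons 0 of the 7 passed, where 0.328% to 10.7% of all genes did. In the knockout effects 0 of 7 passed, where at most 0.00964% of all genes did.

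Among 18 further processing enzymes and their helpers 13 were tested. In KO castrated against KO intact males 1 was higher and 3 lower: Pcsk5, a convertase of the constitutive pathway (1.45), Pcsk6, a related convertase (-2.02), Cpm, the membrane carboxypeptidase M (-0.66), and Pcsk1n, whose product proSAAS inhibits Pcsk1 (-1.48, limma adjusted p = 0.00549). Of all genes 7.45% were higher and 10.1% lower. In WT the same comparison called Pcsk5 (1.30), Pcsk6 (-1.40) and Cpm (-0.91), where 10.7% of all genes were called. Females against intact males gave Pcsk5 at 1.12 in KO and 1.20 in WT, and Pcsk6 at -2.10 in KO and -2.14 in WT. Of all genes 10.3% were called in KO and 10.1% in WT. In KO females Cpm (-0.77) was also lower, and Ctsl, a lysosomal protease, was higher by at least 1.27-fold, with 0 of 3 KO intact male arrays detecting it. Castrated males against females called 0 of 13 in either genotype. For Pcsk5 and Pcsk6 the arrays of the groups compared did not overlap.

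Of 17 granins and granule proteins 15 were tested, and Chga, Chgb and Syt1 of these are also in the medulla index. In KO castrated against KO intact males 10 were lower and 1 higher (median -0.92), including Chgb (-0.92), Syt1 (-1.24), Chga (-0.77) and, on the higher side, Cadps2, which primes granules for release (1.55, limma adjusted p = 0.000148). Of all genes 10.1% were lower and 7.45% higher. In WT 2 were lower, Chgb and Vgf (-2.05, limma adjusted p = 0.0157, arrays overlapping), and Cadps2 was higher (1.89), where 6.1% of all genes were lower and 4.61% higher. Cadps2 was also the 1 gene of the list called in females against intact males (1.67 in KO and 1.92 in WT). KO castrated males against KO females had 3 lower: Chgb (-0.81), Chga (-0.75) and Resp18 (-1.24), where 1.02% of all genes were lower.

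Of 19 receptors for these and related peptides 6 were tested. Tacr2, a tachykinin receptor, was higher in all 4 comparisons with intact males: by 1.61 in KO castrated, 1.00 in WT castrated, 2.11 in KO female and 1.72 in WT female glands (limma adjusted p between 3.83e-07 and 0.00156). Npy1r, a receptor of neuropeptide Y, was called lower in KO castrated than in KO intact males (limma adjusted p = 0.0416), but was detected on 0 of the 3 castrated arrays, which leaves a bound of at least 1.00-fold. Of 18 peptide-degrading enzymes 11 were tested. Ide, insulin-degrading enzyme, was higher in all 4 comparisons with intact males (0.67 in KO castrated, 0.56 in WT castrated, 0.68 in KO female and 0.45 in WT female glands). Prep was higher (0.76) and Ace (-1.04) and Anpep lower in KO castrated against KO intact males, Anpep by at least 1.37-fold with 0 of 3 castrated arrays detecting it. In castrated males against females 0 receptors and 0 degrading enzymes passed in either genotype, where 1.53% of all genes passed in KO and 0.328% in WT. Against intact males 17.5% of all genes passed in KO castrated, 10.7% in WT castrated, 10.3% in KO female and 10.1% in WT female glands.

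Scaling bears on these counts. With array medians in place of quantile normalization, the median of all genes moved to -0.41 in KO castrated against KO intact males (-0.03 with quantiles), and 123 genes were called higher and 1233 lower (773 and 1045 with quantiles). The same 4 members were called there (Npy -0.78, Gal -1.24, Cartpt -2.43 and Cpe -1.22), and relative to that median their differences were -0.37, -0.83, -2.02 and -0.81. Cartpt was not called under that scaling in KO females against KO intact males (1.53, limma adjusted p = 0.0931), and Cpe in none of the other comparisons with intact males. For KO castrated males against KO females the median moved to -0.37, with 9 genes higher and 226 lower (53 and 106 with quantiles), and Npy, Gal and Cartpt relative to it were at -0.97, -1.08 and -3.59. In WT castrated against WT intact males the median was -0.16, with 126 higher and 281 lower (478 and 633 with quantiles). WT castrated males against WT females had 6 higher and 4 lower there (14 and 20 with quantiles).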

How the data were processed

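Per the file headers, the deposited table gives an average bead signal (intensity, not normalized between arrays) and a detection p-value for 45281 probes on 18 arrays. GenomeStudio appears in the submitters' processing notes without a version. The authors also deposited normalized intensity values, used as an alternative. Slides are not given in the sources used here and were not modelled.

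Signals were background-corrected and quantile-normalized with neqc of limma 3.58.1 (R 4.3.3), with an offset of 16 before log2. Genes were tested by their brightest probe detected at p under 0.01 on at least 3 arrays. All 13 comparisons came from 1 limma fit of 6 group means (12 residual and 6.2 prior degrees of freedom, intensity trend), with Benjamini-Hochberg adjustment over 10375 genes and a threshold of 0.05. The median standard error of a difference between 2 groups was 0.206, so the number of arrays limits the precision. Where the dimmer group never detected a gene, the fold is a bound. The brighter mean was set against the dim arrays, each at its lowest detected value where the gene lay under that. The fit was tested on simulated data. Alternatives were no background correction, the authors' values, median scaling, other filters and probe choices, no intensity trend, array weights, a replicate block, the medulla index as a covariate and leaving arrays out.

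Named were all members, Ephb6, up to 4 called genes of each list by smallest p (otherwise the 2 smallest), and the 3 genes most correlated with each member. Members and lists were chosen with earlier results of these data known. Replicate numbers did not pair the arrays (correlations of same-numbered deviations -0.232 to 0.233).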

Additional observations from a re-analysis of the deposited data

How the results depend on the processing

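Members called were counted again under each alternative. In WT castrated against WT intact males (2 called), 1 passed without background correction, with median scaling, without the detection filter, with the mean over a gene's probes, without the intensity trend or with the medulla index as a covariate, and 4 with array weights, with the replicate block or with both doubted arrays left out. Leaving out 1 array at a time gave 1 to 3. In KO castrated against KO intact males (4), the covariate left 1, with Npy at 0.20 and Gal at 0.0801 (limma adjusted p = 0.690 and 0.892), Npy lost its call without the detection filter, with the mean over probes and without the trend (limma adjusted p = 0.0839, 0.0507 and 0.0824), which left 3 each time, and leaving out 1 array gave 3 to 4. Over all genes 472 passed there with the covariate, against 1818. In KO females against KO intact males (2), median scaling left 0, the fits without the filter, without the trend or without both doubted arrays left 1, and leaving out 1 array gave 0 to 2. Over all genes 318 passed there with median scaling, against 1068. In WT females against WT intact males (1), 0 passed with median scaling, without the filter, with the mean over probes, without the trend or without any 1 array, 3 passed with array weights and 2 with the replicate block or without both doubted arrays. Over all genes 2257 passed there with array weights, 1648 without both doubted arrays and 314 with median scaling, against 1051. In KO castrated males against KO females (3), the covariate left 0, the fit without the trend left 2 (Gal lost), and leaving out 1 array gave 2 to 3. Over all genes 13 passed there with the covariate, against 159. In WT castrated males against WT females (0), 1 passed with array weights or without both doubted arrays, and leaving out 1 array gave 0 to 1. Over all genes 334 passed there with array weights and 147 without both doubted arrays, against 34. The replicate block rests on numbers that did not pair the arrays, and its counts over all genes are not given here. Apart from the arrays left out in turn, 106 of 132 called member values kept their call, 24 lost it and 2 changed sign. The causes were not tested.

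Over all genes, median scaling changed 1111 calls to 407 (WT castrated against intact males), 1051 to 314 and 1068 to 318 (WT and KO females against intact males) and 34 to 10 (WT castrated males against females), and array weights gave 2617, 2257, 2048 and 334. For KO castrated against intact males and against females (1818 and 159), array weights gave 2783 and 595, and the covariate 472 and 13; for WT castrated males against females it gave 63. Without both doubted arrays 1841 (WT castrated) and 1648 (WT females) genes passed against intact males, and 147 (WT) and 88 (KO) in castrated males against females. Leaving out 1 array gave 542 to 1048 and 975 to 1774 for WT and KO castrated against intact males, 638 to 1082 and 661 to 963 for WT and KO females, and 6 to 28 and 83 to 184 for WT and KO castrated males against females. In the mean knockout effect 6 genes passed with array weights, against 1, and no member did. Tac1 and Pcsk1 were too dim to be tested, and Penk was detected on 9 of 18 arrays.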

Other observations

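Activity-regulated transcription genes, which many cells induce within minutes of stimulation or handling, differed between arrays of the same group. The mean log2 intensity of the 18 tested genes of a list of 24 was 8.80, 8.85 and 10.29 on the KO castrated arrays and 8.27, 9.08 and 9.65 on the WT castrated arrays. KO females lay at 8.04, 8.05 and 8.52 and WT females at 7.72, 7.96 and 8.54. KO intact males lay close together at 7.83, 7.87 and 7.95, and WT intact males far apart at 7.74, 9.11 and 11.70. In KO castrated against KO intact males 5 genes of the list were higher and 1 lower. Of all genes 7.45% were higher and 10.1% lower there. Egr1, an early-response transcription factor, was higher by 3.11 (SE 0.75, limma adjusted p = 0.00797), Nr4a2, an orphan nuclear receptor, by 2.79 (limma adjusted p = 0.0400) and Sik1, a kinase induced by cyclic AMP, by 2.44 (limma adjusted p = 0.0268). Jun was lower in all 4 comparisons with intact males, by differences of -1.10 in KO castrated, -1.39 in WT castrated, -1.29 in KO female and -1.74 in WT female glands. In WT castrated against WT intact males 0 genes of the list were higher, where 4.61% of all genes were.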
